A study of Mus musculus with 20 samples.

Results

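Interferons are secreted proteins that put cells into an antiviral state. Type I interferons act through a receptor made of Ifnar1 and Ifnar2, which activates kinases and then a transcription factor complex that holds Stat2 and Irf9. This complex binds interferon-stimulated response elements, short GA-rich sequences in front of the genes it switches on. Ifnk, interferon kappa, is the type I interferon that keratinocytes of the epidermis make without infection. The genes described here were chosen by name as the interferon system of skin and muscle, with earlier results of these data known. They were 40 genes of 35579 in all: the ligand Ifnk, the receptor chains Ifnar1 and Ifnar2, and 37 response genes that interferons are known to induce.

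RNA was measured by sequencing 70 days after treatment of the left hindlimb of wild-type C57BL/6J mice, in its skin and in its skeletal muscle. The groups were 35 Gy of electrons at conventional dose rate (CONV, 3 libraries per tissue), 35 Gy at the ultra-high dose rate called FLASH (4 libraries per tissue) and sham treatment without irradiation (3 libraries per tissue). The question of the design was how the tissues differ late after the same dose at different rates. The labels number the replicates without stating that each is a separate animal, and they give skin and muscle as separate batches. The p-values therefore measure the spread between these libraries, which may be partly technical.

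Each skin library held between 24396463 and 33250762 estimated counts and each muscle library between 10198699 and 12336479, of which up to 65.1% went to just 10 genes. The file names of 2 skin libraries (FLASH 1 and sham 3) and 5 muscle libraries (FLASH 1 to 3, sham 2 and 3) point to another record than the one that holds them. No CONV file was affected, so CONV was also compared with the other 7 libraries of its tissue, a comparison that is the same under either assignment. Skin libraries FLASH 2 and sham 1 held 22686 and 22723 summed CPM (counts scaled to the size of the library) of 10 fast skeletal muscle genes, against 57.9 to 3211 in the other 8. In whole tissue, fewer cells of a type and less RNA per cell cannot be told apart.

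All 40 genes reached 1 CPM in at least 3 skin libraries and 30 did so in muscle. Between genes, levels were compared in TPM, a unit corrected for transcript length and library size. In sham skin the highest was Ifi27, an interferon-induced mitochondrial and nuclear membrane protein, at 103 ± 7.48 TPM (SD, n = 3), followed by the RNA sensor Ddx58 at 80.1 ± 6.47 TPM and by Stat2 at 54.9 ± 7.86 TPM, with no overlap between the ranges of these 3. Ifnk was rank 16 of 40 at 15.3 ± 1.45 TPM, between Gbp2 at 16.2 ± 3.85 and Mx1 at 12.4 ± 2.67 and the ranges of these 3 overlapped. The low end was mostly antiviral effectors, with Oas1a at 1.96 ± 0.85 TPM and Ifit3b at 1.80 ± 1.27 TPM. Of the 30 genes described in both tissues, 28 were higher in every sham skin library than in every sham muscle library, with a median ratio of 8.25. Tissue and batch cannot be told apart in that comparison. The same share over all genes was not computed, so the count is not read as particular to these genes. In sham muscle up to 65.1% of counts went to 10 genes, which leaves less TPM for all others.

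**Figure D1:**
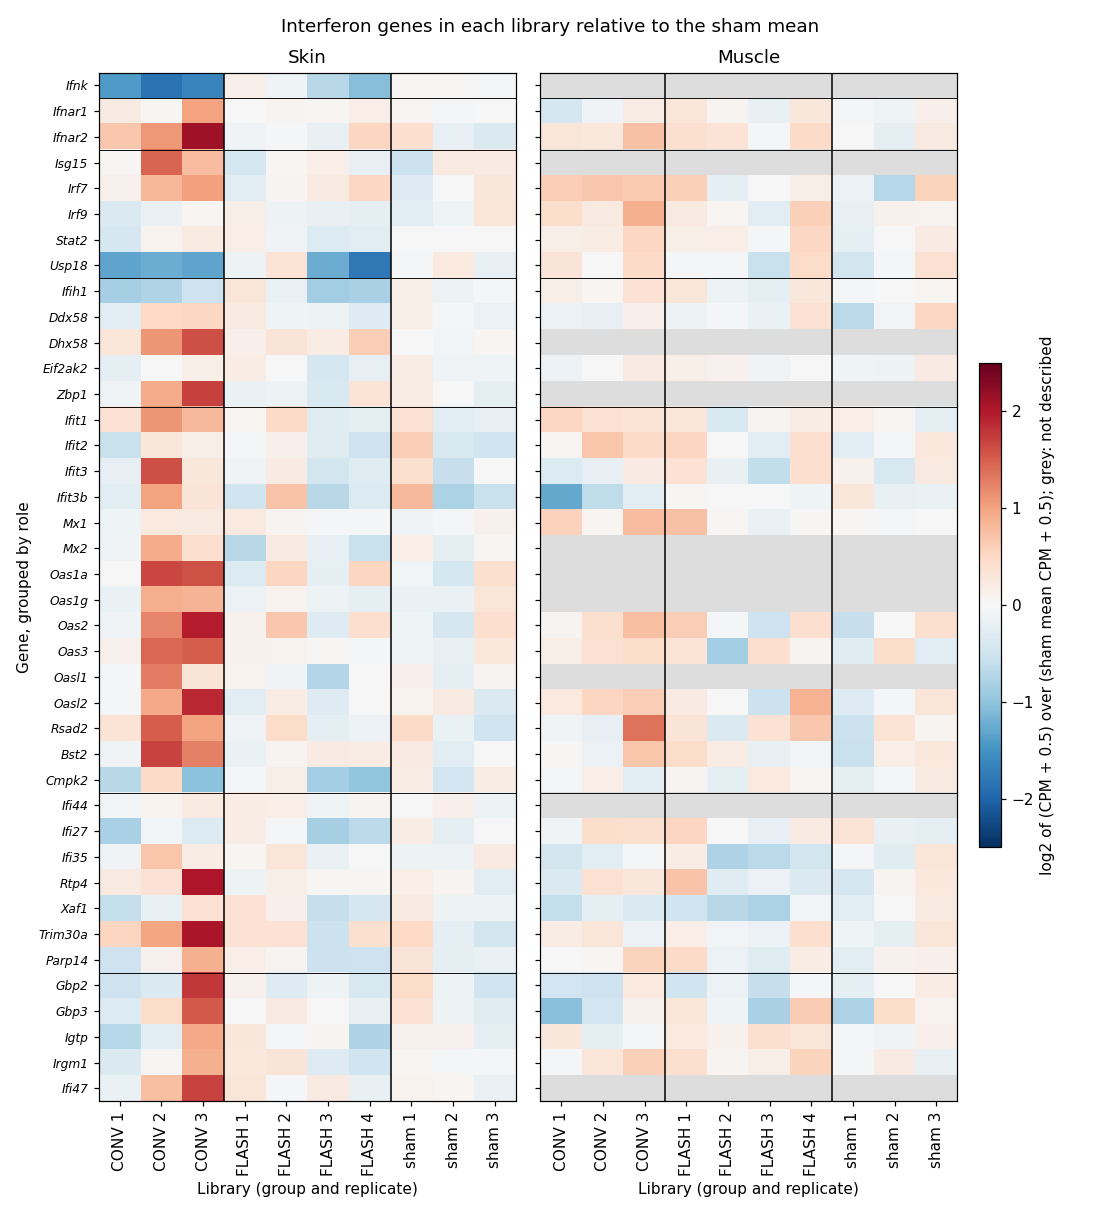
Each cell gives the log2 ratio of 1 gene's level (CPM + 0.5) in 1 library to its sham mean in the same tissue, with genes grouped by role and libraries ordered CONV, FLASH, sham. In skin, Ifnk was blue in all 3 CONV libraries (1.56, 1.04 and 1.25 CPM against a sham mean of 5.03), while most antiviral genes were red in CONV 2 and CONV 3 and near white in CONV 1. Grey marks genes below the level for description in muscle.

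Ifnk was lower and most response genes were higher in CONV skin. In edgeR, Ifnk and the receptor chain Ifnar2 were the only members to pass against the other 7 libraries, and none passed against sham. The calls depended on the method, as DESeq2 called 13 members against the other 7, beside 10.3% of all genes. Ifnk, at chromosome 4 from 35152056 to 35154005 on the plus strand of GRCm38, had 1.56, 1.04 and 1.25 CPM in CONV 1 to 3. It had 5.54, 4.65, 2.91 and 2.13 CPM in FLASH 1 to 4 and 5.14, 5.12 and 4.82 CPM in sham 1 to 3. Every CONV library was below every other skin library, FLASH 3 and FLASH 4 lay between CONV and sham, and FLASH 1 and FLASH 2 lay at the sham level. The means were 1.29 ± 0.263 CPM in CONV (SD, n = 3), 3.81 ± 1.56 in FLASH (n = 4) and 5.03 ± 0.18 in sham (n = 3). These levels rest on 22 to 41 counts per library in CONV, 70 to 168 in FLASH and 137 to 185 in sham, all assigned to a single annotated transcript.

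Against the other 7 skin libraries Ifnk fell by 1.74 ± 0.33 on the log2 scale in CONV (SE), with an adjusted p of 0.0388 in edgeR's quasi-likelihood test. Of 20026 genes tested in that comparison, 331 (1.65%) passed an adjusted p of 0.05, and only 14 of them (0.0699%) were lower in CONV. The fold held its direction in every alternative, but the call did not. Leaving out CONV 2, CONV 3, any of FLASH 1 to 3 or any of the sham libraries raised the adjusted p to between 0.0748 and 0.223, at log2 changes of -1.82 to -1.62, and leaving out FLASH 4 lowered it to 0.00615 at -1.86. It was 0.229 without the 2 libraries of disagreeing name and 0.19 without the 2 muscle-rich libraries.

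In CONV against sham, 3 of 40 members were lower in every CONV library (Ifnk, Usp18 and Ifih1, beside 14.3% of all genes) and 4 were higher (Ifnar2, Dhx58, Rtp4 and Trim30a, beside 13.6%). In FLASH against CONV, Ifnk was the 1 member higher in every FLASH library (beside 3.6% of all genes), and Ifnar2, Oas3, Rtp4 and Trim30a were the 4 that were lower (beside 4.73%). The pairwise tests gave the same order of groups for Ifnk. The log2 change was -1.96 ± 0.36 for CONV against sham, 1.56 ± 0.34 for FLASH against CONV and -0.40 ± 0.32 for FLASH against sham, with adjusted p of 0.127, 0.249 and 1.00 in edgeR. No gene passed in these 3 skin comparisons in edgeR (0%), where the unadjusted p was under 0.05 for 20.1%, 12.7% and 0.659% of genes, and DESeq2 called 1630 (8.14%), 457 (2.28%) and 4 genes (0.02%). DESeq2 called Ifnk in CONV against sham (adjusted p = 8.98e-05) and in FLASH against CONV (0.00407). With files assigned by library name FLASH against sham was -0.54 ± 0.29 (edgeR adjusted p = 0.685). The files that trade places, FLASH 1 and sham 3, both held high Ifnk.

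**Figure D2:**
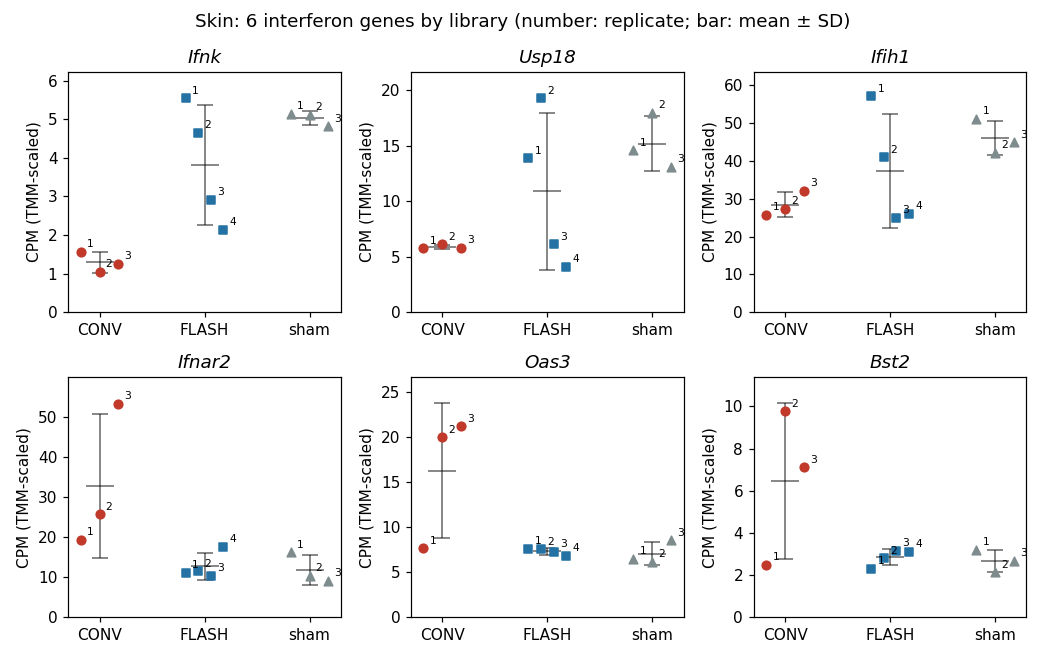
Each point is the level of 1 gene in 1 skin library in TMM-scaled CPM, numbered by replicate, with the group mean ± SD as bars. Ifnk, Usp18 and Ifih1 were low in CONV and in FLASH 3 and FLASH 4, whereas Ifnar2, Oas3 and Bst2 were high in CONV, with CONV 1 at or near the level of the other libraries for Oas3 and Bst2.

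The markers of the cells that make Ifnk did not all move with it. The summed level of 6 basal keratinocyte genes was 8694, 27409 and 6289 CPM in CONV, 5610 to 9635 CPM in FLASH and 6157 to 8622 CPM in sham. Per 1000 CPM of those genes, Ifnk stood at 0.18, 0.038 and 0.199 CPM in CONV, at 0.658, 0.624, 0.519 and 0.221 in FLASH and at 0.835, 0.8 and 0.559 in sham. CONV was therefore also below every other library on this scale, with FLASH 4 the nearest. The 6 genes did not move together. In CONV against the other 7, 3 were higher and 3 lower, with log2 changes from -1.86 to 2.42. The ratio is therefore not a measure of Ifnk per basal cell. With the basal keratinocyte score as a covariate the log2 change of Ifnk in CONV against the other 7 was -1.64 ± 0.37 (edgeR adjusted p = 0.0667).

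Among keratinocyte genes, Krt15 was low and the wound keratins were high in the libraries in which Ifnk was low, but none passed the adjusted threshold in CONV against the other 7. Krt15, a keratin of resting basal cells and the hair follicle bulge, had 221, 289 and 32.3 CPM in CONV, 981, 903, 221 and 166 CPM in FLASH and 803, 736 and 788 CPM in sham. Its low libraries were the 5 in which Ifnk was also low. Its log2 change in CONV against the other 7 was -1.86 ± 0.75 (edgeR adjusted p = 0.174). Krt15 does not stand for the whole basal list. In CONV against sham, Krt14 (3.00 ± 0.84), Krt5 (0.54 ± 0.38) and Itga6 (0.15 ± 0.27) were higher on the log2 scale. Trp63 (-0.63 ± 0.20) and Col17a1 (-0.56 ± 0.47) were lower, and none of these genes was called in edgeR. The 4 wound keratins Krt6a, Krt6b, Krt16 and Krt17, which epidermis makes when it is injured or proliferating, summed to 8346, 22135 and 5995 CPM in CONV, to 351, 285, 1461 and 7645 CPM in FLASH and to 185, 544 and 432 CPM in sham. The same 5 libraries were the highest here. In CONV against the other 7 all 4 were higher, with a median log2 change of 3.19, none was called and the lowest adjusted p was 0.153 in edgeR. The part of a changed keratinocyte state in the level of Ifnk was not tested.

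**Figure D3:**
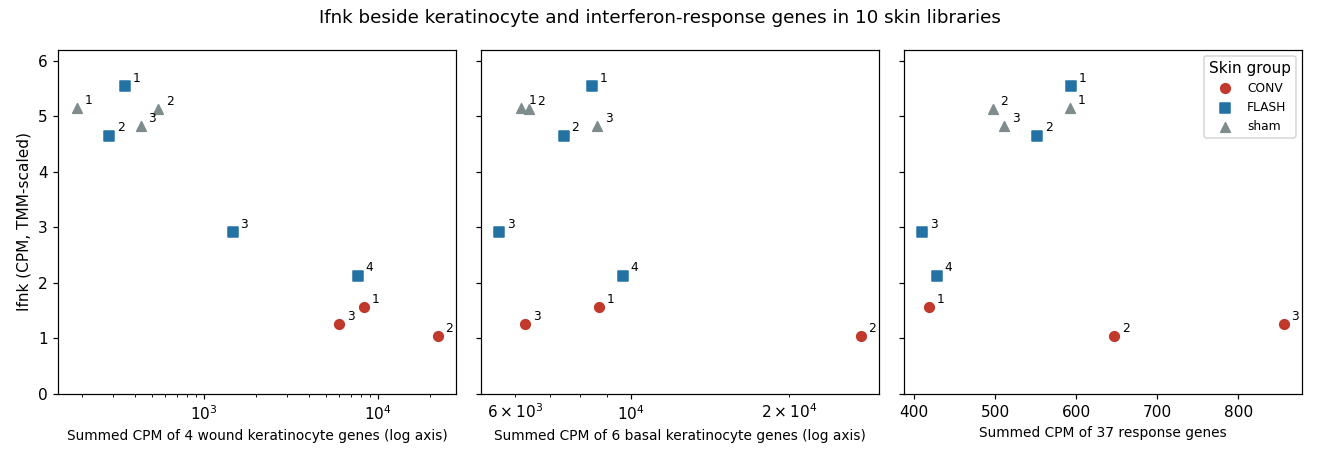
Each point is 1 skin library, with Ifnk (TMM-scaled CPM) on the vertical axis and the summed CPM of the wound keratinocyte genes (log axis), of the basal keratinocyte genes (log axis) and of the 37 response genes on the horizontal axes. The libraries with Ifnk under 3 CPM are the 5 with wound keratin sums of 1461 CPM or more, while the basal keratinocyte sums of the groups overlap and the response gene sums put CONV 2 and CONV 3 highest and CONV 1 among the lowest.

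Other interferon genes gave little signal. The ligand list held 21 genes, chosen by symbol and present in the annotation used. Interferon genes under other symbols were not searched. Of the 20 other than Ifnk, 11 had no count in any skin library, among them Ifnb1, Ifnl2 and Ifnl3. Ifnk itself had 1029 counts over the 10 skin libraries, and the next were Ifna16 with 305 and Ifnz with 181. Ifng, the type II interferon of T and NK cells, had 1, 2 and 8 counts in CONV, 1, 1, 3 and 2 in FLASH and 0, 2 and 0 in sham, levels at or below the limit of 3 counts in all libraries but CONV 3. In muscle Ifnk had 2 counts in all, 1 of them in CONV and 1 in FLASH, and none in sham, where a count of 0 allows up to 0.0863 CPM over the group.

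Of the receptor chains, Ifnar2 passed the edgeR test in CONV skin against the other 7 libraries and Ifnar1 did not. Ifnar2, at chromosome 16 from 91372783 to 91405589 on the plus strand of GRCm38, had 19.4, 25.7 and 53.2 CPM in CONV, 11.1, 11.5, 10.4 and 17.6 CPM in FLASH and 16.2, 10.3 and 9.19 CPM in sham. All CONV libraries were above all others, CONV 1 only narrowly. Ifnar2 rose by 1.41 ± 0.30 on the log2 scale in CONV against the other 7 (edgeR adjusted p = 0.0474), beside 317 genes (1.58%) that were called higher. Without CONV 3 the change was 0.86 ± 0.25 (adjusted p = 0.262). Leaving out CONV 2, any of FLASH 1 to 3 or any sham library also ended the call, at log2 changes of 1.35 to 1.56, as did leaving out the 2 libraries of disagreeing name (adjusted p = 0.234) or the 2 muscle-rich libraries (0.195). For FLASH against CONV it was -1.37 ± 0.36 (adjusted p = 0.27), and for CONV against sham 1.46 ± 0.40 (adjusted p = 0.132). For FLASH against sham it was 0.09 ± 0.37, a sign that turned when single libraries were left out or files were assigned by library name.

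Ifnar1, the other chain, had 70.8, 62.4 and 123 CPM in CONV, 61.3 to 68 CPM in FLASH and 58.9 to 62.6 CPM in sham. Only CONV 3 stood well apart. Its log2 change in CONV against the other 7 was 0.45 ± 0.18 (edgeR adjusted p = 0.173).

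Ifnar2 has a long transcript of 3047 bases with 513 codons, which encodes the full receptor chain, and a short one of 1099 bases with 248 codons. The long form had 6.2, 8.82 and 16.6 TPM in CONV, 2.44, 3.69, 2.94 and 5.78 TPM in FLASH and 3.28, 2.97 and 2.29 TPM in sham. Every CONV library was above every other, FLASH 4 being the nearest. The short form had 18.3, 12.4 and 44.3 TPM in CONV, 9.95 to 17.4 TPM in FLASH and 10.6 to 18.3 TPM in sham, so the groups overlapped. The long form made up 25.3%, 41.5% and 27.3% of both forms in CONV, 16% to 27% in FLASH and 15.2% to 20.4% in sham. These shares depend on how kallisto divided reads between the forms, and they were not tested.

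**Figure D4:**
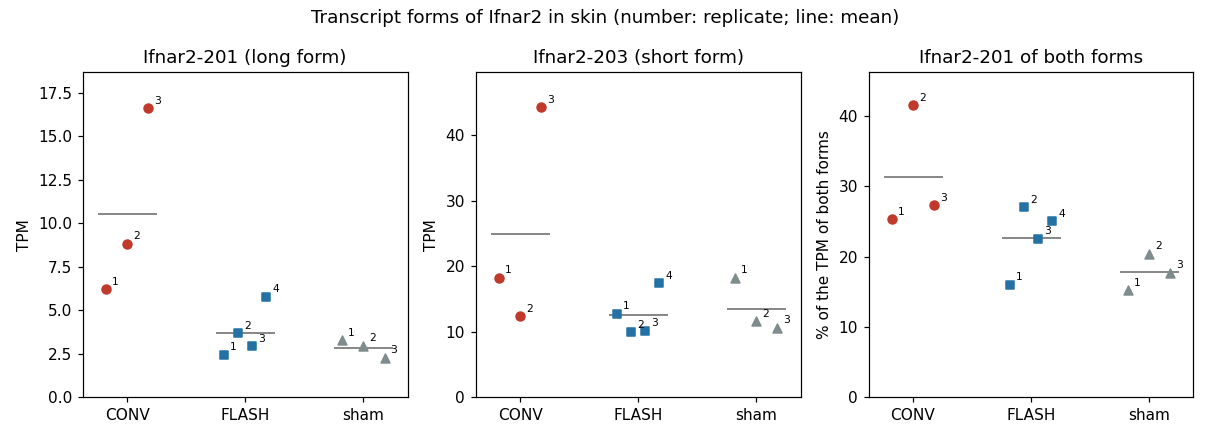
Points give the TPM of the long and the short Ifnar2 transcript, and the percentage of the long form in both, for each skin library, with a line at the group mean. The long form was 6.2 TPM or more in CONV and 5.78 TPM or less in FLASH and sham, while the short form overlapped between groups.

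Of the 37 response genes, 31 stood higher and 6 lower in CONV than in the other 7 skin libraries, with a median log2 change of 0.78 against 0.00 over all 20026 genes. None passed the adjusted threshold in edgeR, beside 1.65% of all genes. At an unadjusted p under 0.05 there were 19 higher and 1 lower, beside 23.4% of all genes in either direction, and DESeq2 called 11 of the 37, beside 2071 of all genes (10.3%). Scaled by library size alone, 26 were higher and 11 lower, with the median of all genes at -0.10. The 6 lower genes were Usp18, Ifih1, Ifi27, Irf9, Cmpk2 and Xaf1.

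Antiviral effectors made up 14 of the 31 higher genes. Of 15 in this class, 14 were higher in CONV (median log2 change 0.88). An unadjusted p under 0.05 was found for 11, beside 23.4% of all genes in either direction. Oas3, which makes the oligoadenylate messenger that activates RNase L, had 7.67, 20 and 21.2 CPM in CONV, 6.83 to 7.62 CPM in FLASH and 6.14 to 8.55 CPM in sham. CONV 1 lay within the other libraries, and CONV 2 and CONV 3 lay far above them. The log2 change was 1.17 ± 0.26 (edgeR adjusted p = 0.0521), the lowest adjusted p among the response genes. Without CONV 1 it was 1.51 ± 0.15 (adjusted p = 0.00403), without FLASH 4 1.16 ± 0.28 (0.0395), and without CONV 3 0.91 ± 0.28 (0.27).

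Bst2, tetherin, which holds budding virus at the cell surface, had 2.48, 9.76 and 7.11 CPM in CONV, 2.31 to 3.16 CPM in FLASH and 2.13 to 3.19 CPM in sham. It showed the same split, with CONV 1 inside the range of the others, and a log2 change of 1.22 ± 0.32 (edgeR adjusted p = 0.077). Rsad2, viperin, which makes a chain-terminating nucleotide, had 5.23, 12.5 and 8.65 CPM in CONV, 3.38 to 5.70 CPM in FLASH and 2.71 to 5.86 CPM in sham (1.11 ± 0.30, adjusted p = 0.0791). Ifit1, which binds foreign RNA caps, had 6.22, 10.7 and 8.58 CPM in CONV, 3.70 to 6.75 CPM in FLASH and 3.85 to 6.27 CPM in sham (0.84 ± 0.24, adjusted p = 0.0971). Ifit3 with Ifit3b and Oas1a with Oas1g are near-identical copies whose reads kallisto may have split, so their separate values are uncertain.

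Other members of this class did not follow. Mx1, a dynamin-like GTPase that is defective in most laboratory mouse strains, had 15.1 to 19.4 CPM in CONV, 15.8 to 19.3 CPM in FLASH and 15.3 to 17.7 CPM in sham, and most of its TPM was assigned to a transcript annotated for nonsense-mediated decay. Cmpk2, a mitochondrial nucleotide kinase, had 2.48 to 7.91 CPM in CONV, 2.58 to 6.19 CPM in FLASH and 3.87 to 6.42 CPM in sham.

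Response elements stand in front of many of these genes, and the stretches below, from RefSeq promoters on GRCm38.p6, are shown to set response genes that hold the element beside Ifnk. None of these 6 response genes passed the adjusted threshold in CONV against the other 7, and Irgm1 was at 0.30 ± 0.27 on the log2 scale (edgeR adjusted p = 0.516). The stretches are 60 bases long, on the strand of the gene, 5′ to 3′, with matches in capitals and overlapping matches run together. A match is GAAA, any 2 bases and GAAA again, or its reverse complement, TTTC, any 2 bases and TTTC.
Isg15, chr4:156200856-156200915, minus strand: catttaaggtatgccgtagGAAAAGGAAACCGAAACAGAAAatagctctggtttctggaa
Bst2, chr8:71537565-71537624, minus strand: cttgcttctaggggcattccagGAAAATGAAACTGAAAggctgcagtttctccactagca
Ifit1, chr19:34640769-34640828, plus strand: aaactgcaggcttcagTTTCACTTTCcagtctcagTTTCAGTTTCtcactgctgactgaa
Oas1a, chr5:120907526-120907585, minus strand: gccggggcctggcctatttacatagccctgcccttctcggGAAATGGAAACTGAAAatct
Oas3, chr5:120777700-120777759, minus strand: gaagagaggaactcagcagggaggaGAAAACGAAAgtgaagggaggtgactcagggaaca
Irgm1, chr11:48871421-48871480, minus strand: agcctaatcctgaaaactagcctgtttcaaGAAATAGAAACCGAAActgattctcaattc
Ifnk, chr4:35151995-35152054, plus strand: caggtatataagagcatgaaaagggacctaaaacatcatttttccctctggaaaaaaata

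Isg15 has 3 overlapping matches, Bst2, Oas1a and Irgm1 have 2 overlapping ones each, Ifit1 has 2 separate ones and Oas3 has 1. The 60 bases shown for Ifnk end at its start and hold no match, nor do the 250 bases before the start. In those 250 bases, 15 of the 31 members with a RefSeq promoter held the element (48.4%), against 3.46% of the 27025 genes with a promoter there. The gamma-activated site TTCNNNGAA, which reads the same on both strands and can overlap the other element, was in 6 of the 31 (19.4%), Ifnar2, Bst2 and Oas1a among them, against 8.13% of these genes. Response genes with and without the element had positive log2 changes in CONV, none of them called in edgeR. Isg15 and Oas3 hold the element, while Oasl2 (log2 change 1.21 ± 0.32) and Irf7 (0.64 ± 0.24) hold none in these windows. The receptor chain Ifnar2, which was called higher (1.41 ± 0.30), also holds none.

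Signalling and feedback genes were divided. Isg15, a ubiquitin-like protein joined to other proteins, had 1.87, 5.83 and 3.47 CPM in CONV, 1.22 to 2.09 CPM in FLASH and 1.09 to 2.21 CPM in sham (1.09 ± 0.34, edgeR adjusted p = 0.11), again with CONV 1 inside the range of the others. Irf7, the factor that amplifies type I interferon production, had 9.16, 15.4 and 17.6 CPM in CONV, 6.92 to 12.2 CPM in FLASH and 6.65 to 10.3 CPM in sham (adjusted p = 0.153). Stat2 and Irf9, parts of the transcription factor complex, changed little, at 0.06 and -0.10 on the log2 scale.

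Usp18, the protease that removes Isg15 from proteins and holds back signalling at Ifnar2, went the other way. It had 5.76, 6.11 and 5.79 CPM in CONV, 13.9, 19.3, 6.11 and 4.07 CPM in FLASH and 14.6, 18 and 13.1 CPM in sham. FLASH 3 lay at the CONV level and FLASH 4 below it, and FLASH 1 and FLASH 2 at the sham level, the arrangement also seen for Ifnk and Krt15. The log2 change was -1.11 ± 0.44 for CONV against the other 7 (edgeR adjusted p = 0.172) and -1.37 ± 0.50 for CONV against sham (0.19). Without FLASH 4 the value against the other 6 was -1.27 ± 0.32 (adjusted p = 0.0467). Its long coding transcript had 4.33, 4.59 and 4.67 TPM in CONV, 11.6, 14.3, 5.28 and 3.18 TPM in FLASH and 10.2, 17.4 and 10.5 TPM in sham, the same arrangement.

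The cytosolic sensors also split. Ifih1, the sensor of long double-stranded RNA, had 25.8, 27.3 and 32.1 CPM in CONV, 57.1, 41, 25 and 26 CPM in FLASH and 51.1, 42.2 and 44.9 CPM in sham, with FLASH 3 and FLASH 4 again among the low libraries. Against sham its log2 change in CONV was -0.70 ± 0.30 (edgeR adjusted p = 0.237). Dhx58, the related helicase that modulates both sensors, had 4.39, 8.01 and 11.5 CPM in CONV, 3.82 to 5.59 CPM in FLASH and 3.29 to 3.61 CPM in sham, where CONV and sham did not overlap (1.21 ± 0.33 against sham, adjusted p = 0.131). Zbp1, the sensor of Z-form nucleic acid, had 4.08, 8.67 and 15.3 CPM in CONV, 3.23 to 5.62 CPM in FLASH and 3.67 to 4.99 CPM in sham (1.15 ± 0.32 against the other 7, adjusted p = 0.0896). Ddx58 and Eif2ak2, the kinase that stops translation, were at 0.34 and 0.04 on the log2 scale.

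The GTPases of the interferon-gamma class, which act against pathogens inside vacuoles, were high in 1 library. Gbp2 had 13.9, 15.5 and 69.3 CPM in CONV, 15.0 to 21.6 CPM in FLASH and 14.1 to 27.6 CPM in sham. Gbp3 had 4.12, 7.58 and 16.6 CPM in CONV, 4.65 to 6.37 CPM in FLASH and 4.25 to 7.06 CPM in sham, and its log2 change of 0.80 ± 0.34 against the other 7 became 0.09 without CONV 3. Igtp, Irgm1 and Ifi47 likewise had their highest level in CONV 3, at 16.9, 39.3 and 14.0 CPM. By contrast Isg15, Ifit1, Ifit3, Mx2, Oasl1, Rsad2 and Bst2 were highest in CONV 2. CONV 3 was also the library with the most Ifnar1 and Ifnar2 and the largest macrophage, endothelial and fibroblast sums. It had the most Ifng counts too, though these were few, and a part of Ifng in these levels was not tested.

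Among the remaining response genes, Trim30a and Rtp4 had every CONV library above the other 7, while FLASH and sham overlapped. Trim30a, which restrains innate signalling, had 16.0, 22.0 and 46.2 CPM in CONV, 7.31 to 14.4 CPM in FLASH and 7.72 to 15.5 CPM in sham (1.26 ± 0.34, edgeR adjusted p = 0.0798). Rtp4 had 3.66, 4.12 and 14.1 CPM in CONV, 2.77 to 3.45 CPM in FLASH and 2.49 to 3.49 CPM in sham (1.23 ± 0.36, adjusted p = 0.0946). With Ifnar2 they made 3 of 40 members with every CONV library above the other 7, beside 3.85% of all genes, and Ifnk was the only 1 of 40 below, beside 2.62%. Ifi44 and Xaf1 were at 0.04 and -0.03 on the log2 scale.

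**Figure D5:**
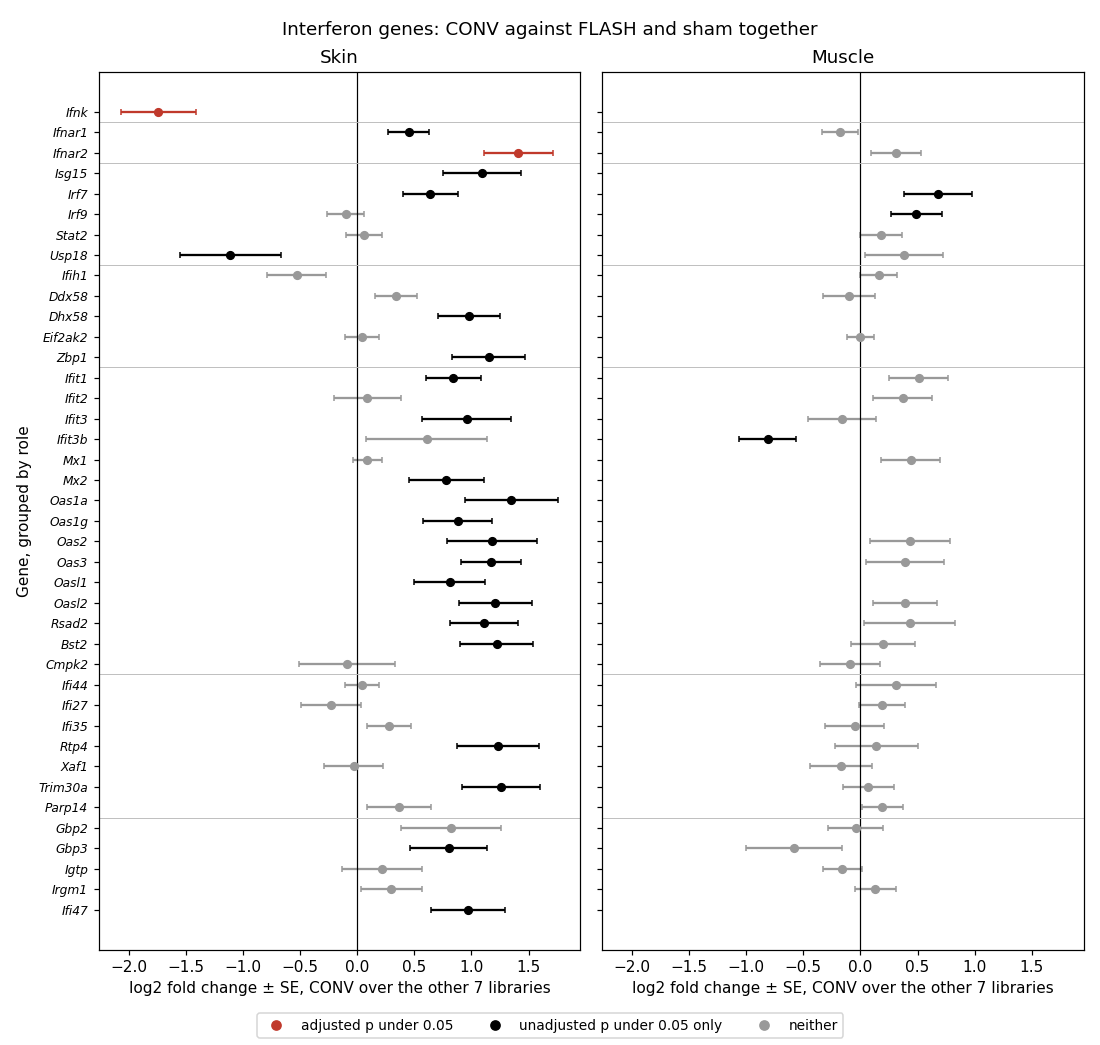
Points give the log2 fold change of each gene in CONV over the other 7 libraries of skin (left) and muscle (right), with the standard error as bars, coloured by the edgeR test. In skin, Ifnk at -1.74 and Ifnar2 at 1.41 passed the adjusted threshold, and 14 of 15 antiviral genes lay above 0. In muscle no member passed.

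The 3 CONV skin libraries were unequal in the response. The 37 genes summed to 418, 647 and 856 CPM in CONV, 593, 552, 410 and 428 CPM in FLASH and 592, 497 and 511 CPM in sham. CONV 1 was among the lowest libraries, and CONV 2 and CONV 3 were the highest. Leaving out CONV 1 gave 16 members called against the other 7 (6.47% of all genes), among them Bst2, Isg15, Oas1a, Oas2, Oas3, Oasl2, Rsad2, Zbp1 and Gbp3, and a median log2 change of 1.02 over the 37. Leaving out CONV 3 gave none, with a median of 0.32 and 24 of 37 higher. Ifnk was low in all 3 CONV libraries alike, whereas the summed response genes of CONV 1 lay within the FLASH range and below every sham library. Abundant genes weigh most in such a sum, and single genes differed. CONV 1 was above every FLASH and sham library for Trim30a and Rtp4, but within their range for Oas3 and Bst2.

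Markers of other cells did not all move with the response. The 6 neutrophil genes summed to 155, 581 and 578 CPM in CONV, to 25.4, 19.6, 21.5 and 94.7 CPM in FLASH and to 21.9, 20.6 and 19.6 CPM in sham, and up to 2 of the 6 were at 0 in single FLASH and sham libraries. All 5 neutrophil genes tested were higher in CONV than in the other 7 and 2 were called. Calls for this list and the next ones stand beside 1.58% of all genes called higher. The 8 macrophage genes summed to 315, 545 and 810 CPM in CONV, 134 to 400 CPM in FLASH and 159 to 269 CPM in sham, with all 8 higher in CONV and 2 called. CONV 1 was the lowest of the CONV libraries on both scales, as it was for the 37 response genes. CONV 1 was above every sham library on both scales, and its response sum of 418 CPM was below every sham library. Abundant genes weigh most in that response sum. For Trim30a, Rtp4 and Dhx58 alone, CONV 1 was above every sham library. The 6 endothelial genes were highest in CONV 3, at 811 CPM, against 119 to 385 CPM in the other 9 libraries, with all 6 higher in CONV and 1 called. The 5 fibroblast genes summed to 1743, 655 and 4153 CPM in CONV, 745 to 1131 CPM in FLASH and 509 to 1412 CPM in sham, with 4 of 5 higher in CONV (median log2 change 1.15) and 2 called. The 4 adipocyte genes were lower in CONV, with none called (median log2 change -1.81). The 8 T and NK cell genes summed to 32.8, 36.8 and 37.4 CPM in CONV, 56.7, 45.0, 31.1 and 33.9 CPM in FLASH and 52.2, 44.3 and 43.2 CPM in sham, the same 5 libraries being low as for Ifnk and Usp18. The plasmacytoid dendritic cell genes, whose cells are known as strong interferon producers, summed to 263 to 436 CPM in CONV, 287 to 345 CPM in FLASH and 256 to 412 CPM in sham, and the groups overlapped. The part of these cells in the interferon genes was not tested.

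Further genes of the pathway were also mostly higher in CONV skin than in the other 7 libraries. Of 13 further receptors, kinases and transcription factors, 11 were higher (median log2 change 0.30) and 1 was called higher, beside 1.58% of all genes. That 1 was Socs3, a feedback inhibitor of cytokine receptors, with 69.5, 132 and 292 CPM in CONV, 19.4, 22.9, 29.5 and 71.2 CPM in FLASH and 37.8, 34.4 and 29.7 CPM in sham (2.23 ± 0.44, edgeR adjusted p = 0.041). FLASH 4 lay just above CONV 1. Of 16 sensing and induction genes, 13 were higher and none was called (median 0.33). Of 47 further response genes, 37 were higher (median 0.41), and Ifitm1 and Ifit1bl1 were called, beside the same 1.58%.

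Ifitm1, which blocks virus entry, had 12.5, 16.9 and 65.7 CPM in CONV, 1.15, 1.87, 1.90 and 7.38 CPM in FLASH and 1.80, 1.47 and 1.34 CPM in sham (3.71 ± 0.64, edgeR adjusted p = 0.0352). Ifit1bl1, a relative of Ifit1, had 0.611, 1.42 and 0.997 CPM in CONV, 0.15 to 0.273 CPM in FLASH and 0.16 to 0.413 CPM in sham (2.20 ± 0.37, adjusted p = 0.0352). For both, the CONV libraries did not overlap the others and were higher, as for 3.85% of all genes. Cxcl10, the chemokine most used as an interferon readout, did overlap, with 1.91, 5.02 and 12.7 CPM in CONV, 2.19 to 3.03 CPM in FLASH and 1.56 to 3.60 CPM in sham (1.30 ± 0.44, adjusted p = 0.131). Neutrophils and macrophages also express several of these genes.

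In FLASH skin the members showed no shared direction against sham. Of the 40 members 17 were higher and 23 lower in FLASH than in sham, with a median log2 change of -0.07. No member was called by edgeR or DESeq2, and none had an unadjusted p under 0.05 in edgeR, beside 0.659% of all genes. Against CONV, 35 of 40 were lower in FLASH (median -0.72), and 17 lower members plus Ifnk as the only higher one had an unadjusted p under 0.05, beside 12.7% of all genes. Each of these comparisons shares a group with the others. In edgeR the lowest adjusted p was 0.249 for FLASH against CONV. The missing calls do not show that FLASH and sham skin were alike: the standard errors of single members ran to 0.63 on the log2 scale, as for Ifit3b.

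Muscle showed smaller differences. No member was called by edgeR or DESeq2 in any of the 4 muscle comparisons, beside 0.0612% of 13080 genes in edgeR and 1.22% in DESeq2 for CONV against the other 7. Of 31 members tested there, 21 were higher in CONV, with a median log2 change of 0.18, and 3 had an unadjusted p under 0.05, beside 11.9% of all genes. Irf7 had 2.43, 2.58 and 2.53 CPM in CONV, 2.42, 1.13, 1.43 and 1.63 CPM in FLASH and 1.24, 0.678 and 2.33 CPM in sham, so CONV was above every other library by a narrow margin (0.68 ± 0.30, edgeR adjusted p = 0.388). Irf9 overlapped between groups (0.49 ± 0.22, adjusted p = 0.408). Ifit3b had 0.809, 1.53 and 2.13 CPM in CONV, 2.45 to 2.73 CPM in FLASH and 2.29 to 3.34 CPM in sham (-0.81 ± 0.25, adjusted p = 0.217), while its near-copy Ifit3 had 1.35 to 2.21 CPM in CONV, 1.02 to 2.63 CPM in FLASH and 1.27 to 2.24 CPM in sham.

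Every CONV muscle library was above the other 7 for 2 of 31 members, Ifit1 and Irf7 (beside 1.98% of all genes), and below them for 1, Ifit3b (beside 2.47%). CONV against sham and FLASH against CONV called 1 gene each in muscle (0.00765%), and FLASH against sham called none (0%) in edgeR. DESeq2 called 0.375%, 0.313% and 0.00765% of genes in CONV against sham, FLASH against CONV and FLASH against sham.

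For FLASH against sham in muscle, the assignment of files mattered. By record 26 of 31 members were higher in FLASH, with a median log2 change of 0.12, and Xaf1, a partner of cell death inhibitors, had the only unadjusted p under 0.05, at -0.59 ± 0.26, beside 2.5% of all genes. By library name 29 of 31 were higher with a median of 0.45, and 7 had an unadjusted p under 0.05, all higher, beside 9.89% of all genes. These were Gbp3 (1.12 ± 0.35), Oas2 (1.06 ± 0.36), Oasl2 (0.77 ± 0.28), Xaf1 (0.62 ± 0.27), Ifit2 (0.61 ± 0.27), Ddx58 (0.51 ± 0.23) and Parp14 (0.50 ± 0.16), with edgeR adjusted p of 0.371 to 0.503. By library name 8 members had an unadjusted p under 0.05 in CONV against sham muscle, beside 16.6% of all genes, again with none called.

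The difference in CONV response between tissues was tested directly over all 20 libraries. It called 21 of 19199 genes (0.109%) and no member, and 11 members had an unadjusted p under 0.05, beside 16.4% of all genes. For Ifnar2 the response was 1.12 ± 0.40 higher in skin than in muscle on the log2 scale (edgeR adjusted p = 0.178), for Usp18 1.46 lower (-1.46 ± 0.57, 0.215) and for Trim30a 1.20 ± 0.43 higher (0.175). The difference for Ifnk is not interpreted, because its muscle libraries held 2 counts.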

How the data were processed

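RNA was sequenced from skin and muscle after ribosomal RNA removal with a stranded total RNA kit, per the labels' protocols. The authors deposited 1 file per library with an estimated count and a TPM value for each of 116116 transcripts, made with kallisto 0.5.0 and mm10, per the submitters' processing notes. The annotation release is not given in the sources used here. Transcripts were assigned to genes by identifier in GENCODE M21, which matched 98.5%, and their estimated counts were summed and rounded. No library was pooled, and groups follow the record that holds each file.

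Tests used edgeR 4.0.16 (quasi-likelihood, robust, TMM scaling, filterByExpr) in R 4.3.3 over all genes of a tissue, with Benjamini-Hochberg adjustment and a threshold of 0.05. The 3 groups shared 1 estimate of spread, with a biological coefficient of variation of 0.428 in skin and 0.173 in muscle. DESeq2 1.42.0, other scalings, no filter, other file assignments, covariates and leaving out libraries were alternatives. The fit was tested on simulated data. Levels are TMM-scaled CPM. Fold changes are given for Ifnk, Ifnar1, Ifnar2 and members with an unadjusted p under 0.05, and for others needed to show a contrast of roles. Low-count limits cover counting error only. The members, lists and tests were chosen with earlier results of these data known.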

Additional observations from a re-analysis of the deposited data

Results flagged for a closer look

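In the FLASH groups of 4 libraries, 6 of 70 gene and tissue groups had 1 library far from the other 3, judged by its gap to the nearest over the whole range (above Dixon's 95% critical value). Chance flags about 1 in 20 groups. In skin, FLASH 4 had 17.6 CPM of Ifnar2, against 10.4 to 11.5 in the other FLASH libraries, and FLASH 3 had 7.31 CPM of Trim30a, against 14.1 to 14.4. FLASH 2, a library with much skeletal muscle RNA, had 3.26 CPM of Ifit3b, against 0.917 to 1.31, and 5.70 CPM of Rsad2, against 3.38 to 3.76. In muscle, FLASH 1, whose file name points to another FLASH record, had 3.28 CPM of Mx1, against 1.53 to 1.83, and 2.27 CPM of Rtp4, against 0.817 to 1.02.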

How the results depend on the processing

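The count of members called in skin depended on the setting. The number called over all genes also shifts with the setting. A count given without its share of all genes is therefore not read as particular to these members. For CONV against the other 7 libraries it was 2 as reported. It was 1 with scaling by library size only, 13 with DESeq2 (beside 10.3% of all genes), and 0 without the libraries of disagreeing name, with the basal keratinocyte covariate or without the 2 muscle-rich libraries. It ran from 0 to 16 when single libraries were left out: 5 without FLASH 4, 16 without CONV 1 and 0 without any other. For CONV against sham it was 0 as reported, 5 with DESeq2 (8.14%), and 0 to 4 with single libraries left out (1 without FLASH 4, 4 without CONV 1). For FLASH against CONV it was 0 as reported, 3 with DESeq2 (2.28%), and 0 to 2 with single libraries left out (2 without CONV 1). The counts for FLASH against sham in skin, for all muscle comparisons and for the difference between tissues stayed at 0. The cause of these shifts was not tested, beyond the fewer libraries in each left-out fit. With the replicate number as a block the count for CONV against the other 7 in skin was 4 (Ifnar2, Ifnk, Irf7 and Isg15). Same-numbered libraries correlated at -0.711 to 0.517 in skin, so the numbers were not taken as pairs.

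Of 1814 fold changes under alternatives, 1733 kept direction and call, 23 lost the call, 45 gained it and 13 turned sign. Some agreement was fixed in advance. CONV against the other libraries of its tissue is the same under either file assignment. Leaving out a FLASH library hardly moves the fold changes of CONV against sham. Few members were called as reported, so keeping the call mostly meant staying uncalled. The count is therefore not a measure of robustness. In skin, Ifnar2 in FLASH against sham became -0.04 by library name, -0.01 without the disagreeing libraries, -0.11 with the replicate block, and -0.11 to 0.38 with single libraries left out (below 0 without FLASH 4, sham 2 or sham 3). In muscle, Ifnar1 in CONV against sham became 0.03 by library size only, and ran from -0.28 to 0.05 with single libraries left out (above 0 without CONV 1). Ifnar2 in FLASH against CONV became 0.03 without the disagreeing libraries and ran from -0.25 to 0.05 with single libraries left out (above 0 without CONV 3). Xaf1 in FLASH against sham became 0.62 by library name and 0.24 without the disagreeing libraries. Ifnk between tissues, with 2 counts in muscle, ran from -6.00 to 1.5 with single libraries left out (above 0 without muscle CONV 2). Scaling by library size only moved the median of all genes by up to 0.13 on the log2 scale within a tissue.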
